A study of Mus musculus with 16 samples.

Results

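Cytosolic ribosomal protein genes were examined in the hippocampus of 16 female 3xTg-AD mice, 8 on a control diet and 8 on a diet with pioglitazone (PIO). A gene was a member when the only symbol of its probe set was Rpl or Rps followed by a digit, or Rpsa, Rplp0, Rplp1 or Rplp2, leaving out the kinases named Rps6k. The rule found 51 of the 18193 genes with a chosen probe set. They were 22 large subunit proteins, 21 small subunit proteins, 5 proteins named as like a ribosomal protein (Rpl22l1, Rpl39l, Rpl3l, Rpl7l1 and Rps27l), 2 genes that RefSeq lists as pseudogenes (Rps15a-ps6 and Rps4l) and Rps19bp1, which binds a ribosomal protein and is not one. Each gene was represented by its probe set with the highest mean over the 16 arrays, and 48 members passed a filter that kept probe sets above the 40th percentile of the mean (3.58 log2 units). The probe sets of Rpl39l, Rpl3l and Rps16 were below it at 2.75, 2.74 and 1.85. Many ribosomal protein probe sets share sequence with processed pseudogenes and carry several symbols, and 27 further ribosomal genes, Rplp1 among the symbols of the rule, occurred on such probe sets alone and were not members.

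All 16 animals were of the 3xTg-AD model, which carries human disease alleles of amyloid precursor protein, presenilin and tau, and no animal without these alleles was used here. They were 14 months old, per the labels. The diets began at 10 months of age and were given for about 14 weeks, with PIO at 84 ppm, which the study equates to some 18 mg/kg of body weight each day. Pioglitazone is a thiazolidinedione that activates the nuclear receptor PPAR gamma, and the study looked for hippocampal genes that responded to it. Each array held total RNA of 1 subject.

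Ribosomal proteins assemble with ribosomal RNA in the nucleolus into the small subunit, which decodes the mRNA, and the large subunit, which joins the amino acids. Their mRNAs are among the most abundant of a cell and usually begin with a cytosine followed by a tract of pyrimidines, the 5′ terminal oligopyrimidine (TOP) motif, through which mTOR signalling and the protein Larp1 adjust their translation. In neurons they are also found in dendrites and axons, where local translation takes place. Arrays measure mRNA levels and not translation.

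The sequence around the start site is shown because the tract, where present, lies at the beginning of the mRNA. The 30 bases around the RefSeq start (build GRCm38.p6, 15 on each side) are given for the members with the highest and the lowest co-variation described further on and for Rpsa and Rps27l, 5′ to 3′ on the transcribed strand, with the longest run of C and T in capitals. Rpl8, Rps29 and Rps15a-ps6 of those groups had no match.
Rps10, chr17:27635230-27635259, minus strand: gcgccgcgcacgCCCCTTCCTTTCCagcct
Rps18, chr17:33955651-33955680, minus strand: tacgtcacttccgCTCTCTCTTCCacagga
Rpl11, chr4:136053379-136053408, minus strand: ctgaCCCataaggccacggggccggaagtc
Rps19, chr7:24884577-24884606, plus strand: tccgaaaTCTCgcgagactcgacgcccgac
Rps28, chr17:33824548-33824577, minus strand: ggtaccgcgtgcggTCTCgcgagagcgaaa
Rpl22l1, chr3:28805493-28805522, plus strand: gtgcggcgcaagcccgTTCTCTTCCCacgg
Rpl39, chrX:37085208-37085237, minus strand: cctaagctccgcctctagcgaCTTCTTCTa
Rpsa, chr9:120127751-120127780, plus strand: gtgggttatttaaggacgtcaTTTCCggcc
Rps27l, chr9:66946071-66946100, plus strand: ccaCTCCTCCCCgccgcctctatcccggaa
The run reached 13 bases in Rps10 and 11 in Rps18, and both span the start. In Rpl11, Rps19 and Rps27l the longest run (3, 4 and 9 bases) lies wholly before the listed start, outside the mRNA. A RefSeq start can differ from the start used in hippocampus, so a short run in this window says only that these letters are not there.

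Of the 42 large and small subunit members tested, 37 had a promoter among those given by RefSeq. A run of 8 or more C and T stood in the 30 bases of 16 of these 37 (43.2%), against 11.7% of 17492 promoters of protein-coding genes. The run reached the first transcribed base or lay beyond it in 15 of these 16 (40.5% of the 37), against 6.51% of all promoters, and lay before the start in 1, Rpl4. The letters CTTTC on the transcribed strand occurred there in 10 of 37, against 3.66% of all promoters, and CTTCC in 5 (13.5%), against 7.27%. CCGGAAG on either strand, in the 250 bases before to 50 after the start, was found in 19 (51.4%) against 11.9%; its other strand contains CTTCC, so these matches can overlap. TATAAA within the 50 bases before the start was found in 0 of 37, against 3.55% of all. Among the members with a probe set mean above 12 log2 units (a boundary chosen after the values were seen), the mean correlation with the other members had a median of 0.30 in the 11 with such a run and 0.33 in the 18 without.

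The deposited log2 values ran from 0.33 to 16.62, with array medians of 5.65 to 5.76. The hippocampal markers Neurod6, Slc17a7 and Camk2a were at 12.56 or above on all 16 arrays. Prox1, of the same list, was lower, from 7.78 to 8.59 in controls and from 7.06 to 8.77 with PIO. Choroid plexus markers separated the animals into 6 with a low and 10 with a high mean, with Ttr, the transthyretin gene, between 10.57 and 16.62. PIO 14 and PIO 15 had the highest means of 10 striatal genes (0.76 and 0.94 above the average of all arrays) and the lowest of 14 hippocampal neuron genes (-0.41 and -0.48). The arrays bore a code that split them into groups of 5 control and 6 PIO, 2 and 1, and 1 and 1, a code that the labels do not explain. In bulk tissue, fewer cells of a type and less RNA per cell cannot be told apart.

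With PIO, none of the ribosomal protein genes changed past the threshold. Of the 48 tested, 0 had an adjusted p under 0.05 by limma with Benjamini-Hochberg adjustment over 12266 genes, against 0% of all genes. At an unadjusted p under 0.05 there was 1 member, Rpsa, which is 2.08% of the members, against 7% of all genes. By estimate 21 members were higher and 27 lower, with a median difference of -0.0045 log2 units (PIO minus control) against 0.0045 over all genes tested. That median was 0.0034 without PIO 11 and -0.020 without PIO 14. With the arrays set to a common median the split was 16 higher and 32 lower, and with quantile normalization 23 and 25. The ranges of the diets overlapped for all 48 members, a count that was not taken over all genes and so marks nothing particular to the members.

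The spread between animals of a diet depended on the level of the probe set. The median SD within a diet was 0.062 log2 units in the 35 members with a mean above 12, against 0.088 in the 1390 other genes above it. In the 13 members at or below 12 it was 0.176, against 0.137 in all genes at or below it. The 95% interval of the difference lay within 0.25 log2 units of 0 on both sides for 43 of the 48, against 8416 of all 12266 genes. For 8 members, 7 or more of the 8 PIO arrays stood on 1 side of the control median, against 19.3% of all genes. The mean of the 48 centred members ran from -0.064 to 0.050 in the controls and from -0.063 to 0.061 with PIO. The animals at the top were PIO 14 and control 8 and those at the bottom control 5 and PIO 11, so the diets spanned similar ranges.

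**Figure D1:**
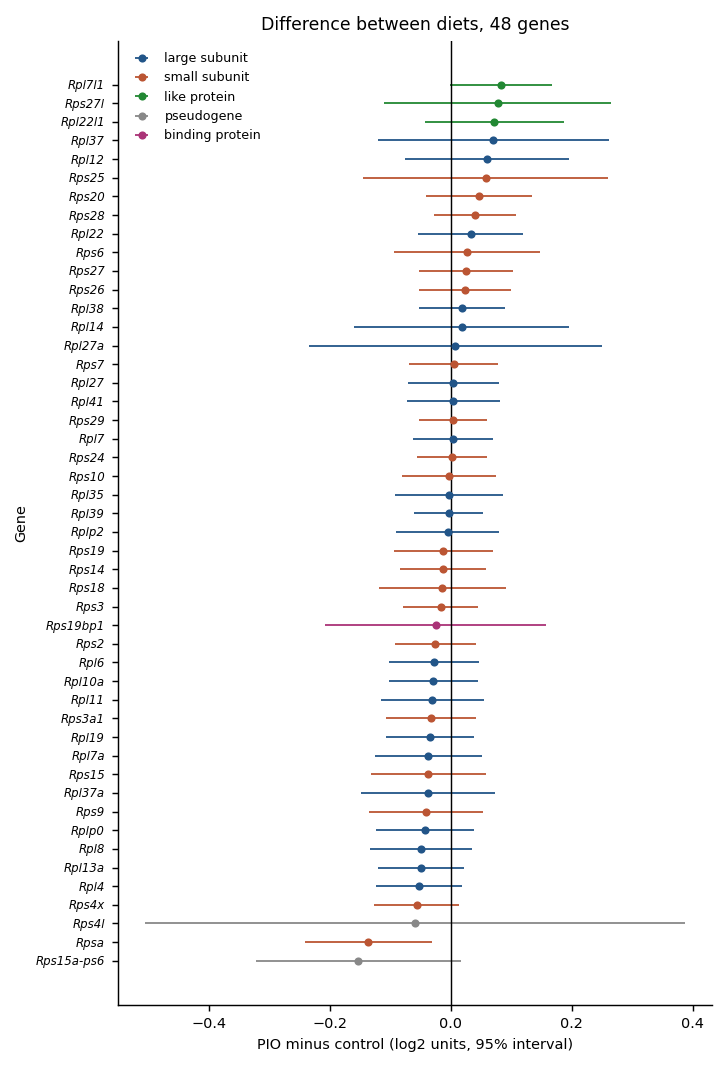
Difference PIO minus control in log2 units (x axis) for each of the 48 tested genes (y axis, sorted by the difference), with 95% intervals from limma and colours for the kind of member. The interval of Rpsa, from -0.24 to -0.032, is the only one that leaves out 0, and Rps4l has the widest, from -0.51 to 0.39.

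Among the 22 large subunit members, 9 were higher and 13 lower by estimate, and the differences ran from -0.053 to 0.070. Rpl4, which lines the exit tunnel, was at 14.85 ± 0.060 (SD, n = 8) in controls and 14.79 ± 0.047 (SD, n = 8) with PIO, a difference of -0.053 (SE 0.033, limma adjusted p = 0.773). Rpl13a, which also serves in translational silencing during inflammation, differed by -0.050 (SE 0.034, adjusted p = 0.792). Its controls had a lowest, median and highest value of 15.07, 15.19 and 15.28, and the PIO animals 15.10, 15.13 and 15.23, so the PIO animals lay inside the control range with 7 of 8 below its median. Of the 4 Rpl13a probe sets above the filter, 2 were higher and 2 lower with PIO, from -0.067 to 0.095. Rpl12, at the base of the stalk, was 0.060 higher (SE 0.064, adjusted p = 0.877), and 0.023 without PIO 9. The probe set of Rpl12 had a mean of only 7.64 log2 units. The stalk proteins Rplp0 and Rplp2, which recruit the elongation factors, differed by -0.043 (SE 0.038) and -0.0051 (SE 0.040). Rpl11, which can bind and inhibit Mdm2 when ribosome assembly fails, differed by -0.031 (SE 0.041).

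Of the 20 small subunit members, 9 were higher and 11 lower by estimate, from -0.14 to 0.058. Rpsa, the small subunit protein also known as the laminin receptor, had a lowest, median and highest control value of 12.98, 13.13 and 13.36. With PIO these were 12.93, 13.02 and 13.13. The PIO animals thus fell in the lower part of the control range, with 2 of 8 below the lowest control and 7 of 8 below the control median. The difference was -0.14 log2 units (SE 0.050, limma adjusted p = 0.681, unadjusted p = 0.0137), and 3.15% of all genes were lower at an unadjusted p under 0.05. The unadjusted p was no longer under 0.05 in the largest code group alone (Rpsa -0.068), with the myelin marker mean in the model (-0.099) or without PIO 14 to 16 (-0.12). Nor was it under 0.05 on the arrays numbered 10 to 24 alone (Rpsa -0.091), a number described further on. All 19 myelin markers tested were lower with PIO by estimate, 9 of them at an unadjusted p under 0.05, with a median difference of -0.22, and none passed the adjusted threshold. The slope of Rpsa on the myelin marker mean was 0.17 (SE 0.13, limma unadjusted p = 0.221, adjusted p = 0.630). The part of myelin content in the Rpsa difference was not tested. Rps4x, an X-linked protein of the small subunit, differed by -0.057 (SE 0.033, adjusted p = 0.762). Rps28 and Rps20 were 0.040 (SE 0.032) and 0.047 (SE 0.042) higher. Rps6, the substrate of S6 kinase downstream of mTOR, differed by 0.027 (SE 0.057). Its probe set had a mean of only 7.71 log2 units, and 9 other probe sets carried Rps6 among several symbols and were not used for it. Rps19, which is mutated in Diamond-Blackfan anaemia, differed by -0.013 (SE 0.039) and Rps3, which also acts in DNA repair, by -0.017 (SE 0.029). The other Rps3 probe set above the filter differed by 0.12.

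All 3 of the like proteins tested were higher by estimate, and none passed the test. Rpl7l1 ran from 9.42 over a median of 9.56 to 9.64 in controls and from 9.57 over 9.62 to 9.79 with PIO. The lowest PIO animal stood above the control median, and 2 PIO animals stood above the highest control. The difference was 0.083 (SE 0.040, limma adjusted p = 0.720, unadjusted p = 0.0542). Rpl22l1, the paralog of Rpl22, was 0.072 higher (SE 0.054, adjusted p = 0.803), but -0.0097 within the largest code group. Rps27l, a p53 target and paralog of Rps27, was 0.077 higher (SE 0.089, adjusted p = 0.884), and -0.0058 with the choroid plexus marker mean in the model. The pseudogene Rps15a-ps6 was at 5.11 ± 0.20 (SD, n = 8) in controls and 4.96 ± 0.12 (SD, n = 8) with PIO, a difference of -0.15 (SE 0.080, adjusted p = 0.737). Rps19bp1 differed by -0.025 (SE 0.086), and by 0.038 without PIO 11. Of 30 named members, 11 changed the sign of their difference with 1 animal left out, Rps6, Rps10, Rps18, Rps19 and Rplp2 among them, and 24 either did so or moved by more than 1.5 times.

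Rps4l varied far more between animals than any other member. Its controls had a lowest, median and highest value of 9.13, 9.69 and 10.04, and its PIO animals 8.49, 9.72 and 10.36. The extremes, PIO 13 and PIO 14, had the same diet, and the SD within a diet was 0.46. The next largest was that of Rpl27a at 0.24, followed by Rps25, Rpl37 and Rps27l at 0.20, 0.19 and 0.19, and 36 members were below 0.1. The diets differed by -0.059 for Rps4l (SE 0.21, adjusted p = 0.969), by 0.098 without PIO 13 and by -0.17 without PIO 14.

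**Figure D2:**
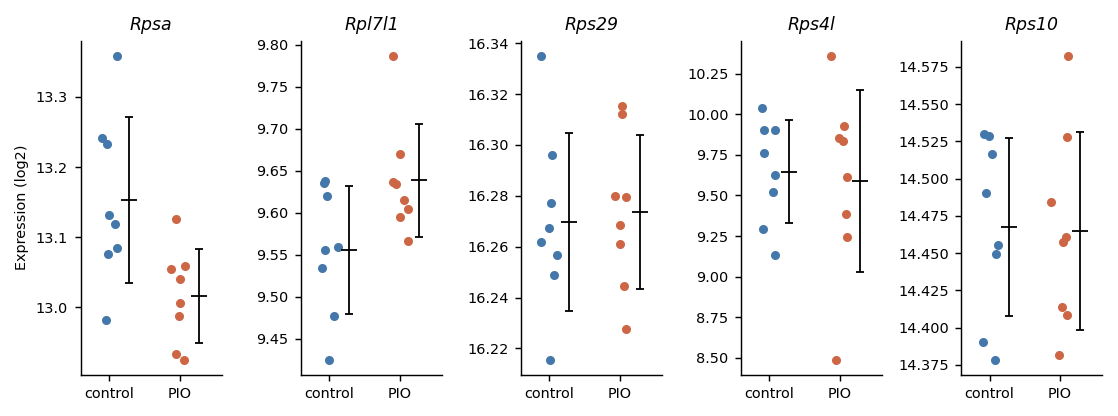
Log2 expression (y axes, with a scale of its own for each gene) of Rpsa, Rpl7l1, Rps29, Rps4l and Rps10 in control and PIO animals; points are animals and bars the mean ± SD of 8. The diets overlap for each gene, and Rps4l spans from 8.49 to 10.36.

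The members tended to be high or low together from animal to animal. Co-variation was the Pearson r of 2 genes over the 16 arrays after the mean of each diet was subtracted; arrays share their normalization and hybridization, so it is given as a description. The median r was 0.28 over the 1128 pairs of members, against 0.024 over all 75221245 pairs of genes tested. Above 0.5 lay 25.4% of member pairs and 7.70% of all pairs. The median was 0.25 within the control arrays and 0.31 within the PIO arrays, against 0.023 and 0.024 for all genes. For the 35 members with a mean above 12 it was 0.42, against 0.029 for all genes above 12, and for the 13 others 0.046.

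The size of the co-variation moved with the processing. Quantile normalization lowered the median r to 0.18 over all members and 0.30 over those above 12, with 0.0040 over all genes. Without probe sets of suffix a, s or x 21 members were left, of which 5 were above 12. The median r was 0.080 over the 21 and 0.50 over the 5. With a common median the members above 12 were at 0.46, but all genes above 12 also reached 0.22.

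**Figure D3:**
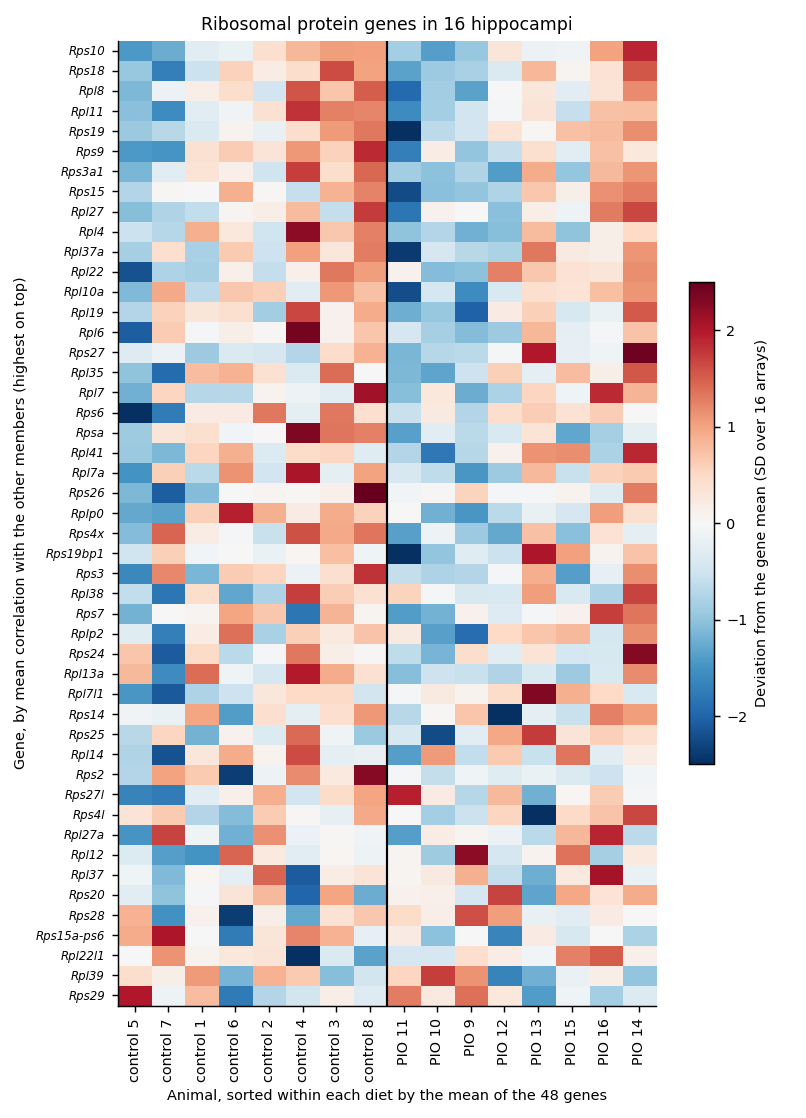
Each row is 1 of the 48 genes, from the highest mean correlation with the other members on top to the lowest, and each column 1 animal, sorted by the mean of the members within controls (left) and PIO (right). Colour is the deviation from the gene mean in SD over 16 arrays; the upper rows pass from blue to red within both diets, and the lowest rows, down to Rps29, do not.

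By subunit, the median r was 0.37 over the 231 pairs of large subunit members, 0.33 over the 190 pairs of small subunit members and 0.34 between the subunits. Among members above 12 it was 0.52 and 0.32 over 136 pairs each and 0.43 between the subunits. The difference between the subunits was not tested and depends on the boundary. The closest pairs were Rpl4 with Rps3a1 at 0.93 and Rpl6 with Rpl7a at 0.90. The most opposed was Rpl22l1 with Rpl38 at -0.77.

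The highest mean correlations with the other members belonged to Rps10 (0.44), Rps18, Rpl8 and Rpl11 (0.43 each) and Rps19 (0.41). Rps10 ran from 14.38 over a median of 14.47 to 14.53 in controls and from 14.38 over 14.46 to 14.58 with PIO. Control 5 was its lowest animal and PIO 14 its highest, as for the mean of the members. These 5 did not differ by diet past the threshold, with Rpl8 the farthest from 0 at -0.049 (SE 0.040, limma adjusted p = 0.826).

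The lowest mean correlations belonged to Rps29 (-0.33), Rpl39 (-0.25), Rpl22l1 (-0.14), Rps15a-ps6 (-0.090) and Rps28 (-0.080). Rps29, a zinc-binding protein of the small subunit, stood at 16.27 in the mean, where the highest value of any probe set was 16.62. It ran from 16.22 to 16.33 in controls and from 16.23 to 16.32 with PIO, and control 5, the lowest animal for the members as a whole, was its highest. Whether the top of the scale has a part in this was not tested. Under quantile normalization its diet difference moved from 0.0037 to -0.077. The 3 Rps29 probe sets above the filter had r of -0.17 to 0.42 with each other, so its low correlation describes the chosen probe set. Rpl39, a small protein of the exit tunnel, had the lowest SD of the members at 0.033, on a probe set with a mean of only 8.11 log2 units.

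Pairs of a ribosomal protein with its like protein or, for Rps4x, the pseudogene Rps4l had low or negative correlations. The r was -0.23 for Rpl22 with Rpl22l1, -0.22 for Rps27 with Rps27l, 0.11 for Rpl7 with Rpl7l1 and -0.15 for Rps4x with Rps4l. The probe set of Rps27 had a mean of only 6.52 log2 units. The stalk proteins Rplp0 and Rplp2, which stand next to each other in the ribosome, had 0.63.

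**Figure D4:**
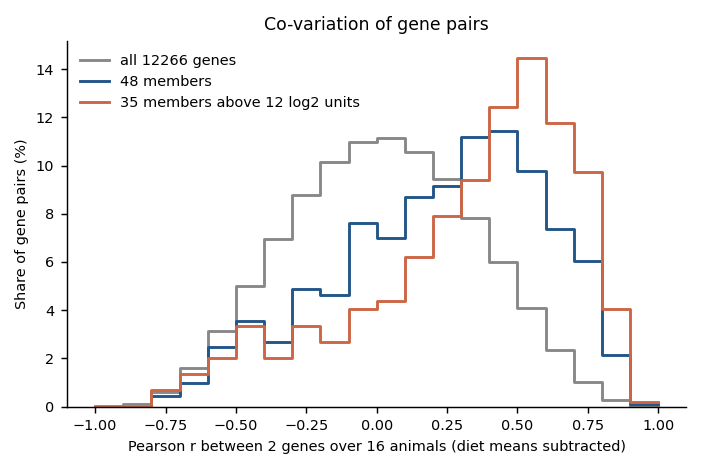
Share of gene pairs (y axis, %) by Pearson r over 16 animals with diet means subtracted (x axis), for all 12266 genes, the 48 members and the 35 members above 12 log2 units. The curve of all genes centres near 0, at a median of 0.024, and that of the members above 12 lies to its right, at 0.42.

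Of the 48 members, 25 (52.1%) had an r above 0.5 with the mean of the others, against 11.7% of 12218 other genes with the mean of all members. The genes outside the rule that were most like that mean over 16 arrays were Chrac1 (r = 0.92), a subunit of a chromatin accessibility complex, Mrpl23 of the mitochondrial ribosome (0.89), the peroxisomal carrier Slc25a17 (0.87), Fau (0.86), the purine synthesis enzyme Ppat (0.86), Pex3, Scand1 and H2-DMa (0.85 each), Atraid and Csk (0.84 each). Fau encodes a small subunit protein fused to a ubiquitin-like protein and stood 4th among 12218 although its symbol falls outside the rule. It ran from 13.46 to 13.69 in controls and from 13.39 to 13.64 with PIO, and the diets differed by -0.055 (SE 0.046, limma adjusted p = 0.836). With quantile normalization its r was 0.72 and its rank 40, and with a common median 0.78 and 96. The most opposed were Hivep2, a zinc finger transcription factor (-0.90), the histone deubiquitinase Mysm1 (-0.83), 1700001K19Rik (-0.81), Gm20362 and Ago3 (-0.79 each).

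Other genes of the pathway were given from lists, and in each of them 0 genes passed the adjusted threshold for diet. Of 25 TOP mRNA partners tested, 9 were higher and 16 lower, with a median difference of -0.012. The smallest p belonged to Snhg1, a host gene of small nucleolar RNAs, at 0.17 (SE 0.076, limma adjusted p = 0.702), Nap1l1, a histone chaperone, at 0.12 (SE 0.054, adjusted p = 0.704) and Eif3e, an initiation factor subunit, at -0.053 (SE 0.032, adjusted p = 0.762). The elongation factors Eef1a1 and Eef2 were at -0.042 (SE 0.035) and -0.039 (SE 0.032). Of 47 ribosome biogenesis genes 25 were higher and 22 lower, with Ddx10, a helicase for small subunit assembly, at 0.13 (SE 0.050, adjusted p = 0.681). Of 19 genes of RNA polymerase I and its factors, which make ribosomal RNA, 15 were higher and 4 lower, with a median of 0.031, against 6463 higher of all 12266 genes. The only one of them with an unadjusted p under 0.05 was lower: Twistnb, at -0.12 (SE 0.057, limma adjusted p = 0.712). Of 21 genes of mTOR and TOP translation control 11 were higher and 10 lower. Among these Rptor, the scaffold of mTOR complex 1, differed by -0.088 (SE 0.040, adjusted p = 0.702) and Larp1 by 0.068 (SE 0.038, adjusted p = 0.762).

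The lists differed in how their genes followed the members from animal to animal. An r above 0.5 with the mean of the members was found in 38 of 76 mitochondrial ribosomal proteins (50%), 10 of 25 TOP mRNA partners (40%), 12 of 47 biogenesis genes (25.5%), 3 of 19 polymerase I genes (15.8%) and 0 of 21 mTOR genes. Over all 12218 other genes it was 11.7%, with a median r of 0.12. The median r was 0.18 for the polymerase I genes and 0.12 for the mTOR genes. The mitochondrial ribosomal proteins, which are encoded in the nucleus and build another ribosome, had a median r of 0.40 among themselves over 2850 pairs and of 0.30 with the members above 12. The TOP partners Eef1a1 and Tpt1 had -0.016 and 0.0020. Markers of some other cell types also varied with the members: microglial genes had a median r of 0.39 with their mean, with 5 of 19 above 0.5 (26.3%), against 0.32 for the biogenesis genes and 0.37 for the TOP partners. The median r was -0.054 for astrocyte and -0.017 for myelin markers. The mean of the 19 microglial genes ran from -0.22 to 0.44 in controls and from -0.28 to 0.25 with PIO. The median r was 0.37 for 11 endothelial, 0.33 for 16 choroid plexus and -0.30 for 14 hippocampal neuron genes, with 1, 0 and 0 above 0.5. The part of cell makeup in the co-variation was not tested.

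The technical and tissue measures of the arrays were set against the members in models that kept diet as a term. RNA quality, as the log2 difference of 3′ and 5′ control probe sets of Gapdh and Actb, ran from 0.27 to 0.40, and 0 of 48 members followed it at an adjusted p under 0.05, against 0% of all genes. The array number, 1 to 6 in 4 control and 2 PIO animals and 10 to 24 in the others, gave 0 members, against 0.00815% of all genes. The myelin marker mean gave 0 members, against 1.79%, and the striatal marker mean 0, against 3%. Unadjusted p under 0.05 was reached by 0, 0, 1 and 0 members in these fits, against 4.74%, 10.2%, 15.2% and 16.7% of all genes.

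The choroid plexus marker mean called 1 of 48 members, Rps27l, and 2.32% of all genes, so the share of members was about that of all genes. At an unadjusted limma p under 0.05 there were 3 members with a positive slope and 1 with a negative slope (8.33%), against 10.8% of all genes. The slope was 0.069 log2 units of Rps27l for each log2 unit of the markers (SE 0.012, limma adjusted p = 0.0030). In the 6 animals with a low marker mean (4 control, 2 PIO) Rps27l ran from 10.33 over a median of 10.47 to 10.60, and in the 10 with a high mean (4 control, 6 PIO) from 10.64 over 10.75 to 11.01. The 2 groups of animals did not overlap for Rps27l. Because the markers fell into 2 clusters, r was also taken within each, on values not adjusted for diet. Within the 10 it was 0.64 (permutation p = 0.0250; Spearman's rho 0.71, permutation p = 0.0267). Adjusted over both clusters, these are 0.05004 and 0.0534, and neither passes the threshold. Rps27l was picked by its slope on this same marker mean in the same animals, so the p-values within clusters are no separate test. The r was 0.81 without the 2 animals farthest from the median. Within the 6 it was 0.24 (exact permutation p = 0.708; rho 0.26, exact p = 0.658), and -0.0059 without 2. In the largest code group alone the slope was again 0.069, with a limma adjusted p of 0.0890. The part of dissection in this was not tested.

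**Figure D5:**
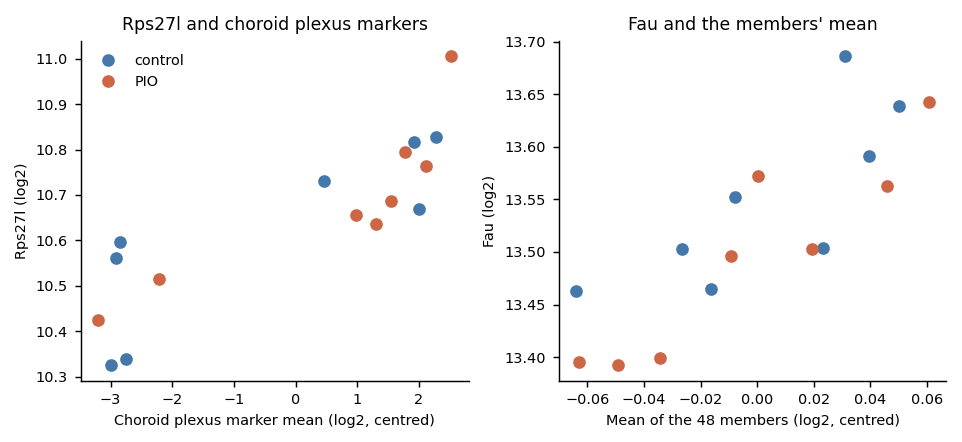
Left, log2 expression of Rps27l (y axis) against the mean of the choroid plexus markers (x axis, centred log2); right, Fau (y axis) against the mean of the 48 members (x axis, centred log2); points are animals by diet. The 6 animals with a low marker mean all lie at or below 10.60 for Rps27l and the other 10 at or above 10.64. Fau follows the members with r = 0.86 after the diet means were subtracted, while the points shown are not adjusted for diet.

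Of the 48 chosen probe sets 33 carried the suffix a, s or x and 15 did not. Of 20 genes with more than 1 probe set above the filter, 7 had all of them on the same side of 0 for diet. Across animals, with diet means subtracted, probe sets of 1 gene did not always follow each other. The r was -0.60 for the 2 of Rps9 and -0.16 for the 2 of Rps3, but 0.93 to 0.94 among the 3 of Rps27l. The 110 probe sets that carry a ribosomal symbol among several, which name no single gene, were read only as a group: 101 passed the filter, 37 were higher and 64 lower with PIO, and 0 reached an adjusted or an unadjusted p under 0.05. Their median r with the mean of the members was 0.45, and 45.5% were above 0.5.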

How the data were processed

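Total RNA from 16 hippocampi was measured on Affymetrix arrays. The authors deposited log2 values per probe set; the submitters' processing notes list MAS5, GCRMA and R 2.7.1 but not which of these produced the values. They were taken as normalized. Background models of this kind narrow low values and can enlarge differences just above them. Array number limits the precision. Control probe sets (64 of 45101) were left out, genes were named from the platform annotation where a probe set had 1 symbol, and 12266 genes passed the filter. Diet and covariates were fitted in limma 3.58.1 (lmFit, then eBayes; R 4.3.3), adjusted by Benjamini-Hochberg over all genes, and the same fits were tested on simulated data. Each array is a separately numbered subject, per the labels. Correlations within clusters used permutation of pairings (exact for 6 animals, 100000 resamples for 10). Of the members' Entrez identifiers 51 were found in RefSeq's table; promoters are RefSeq's first listed start of each gene.

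Members and lists were chosen with earlier results of these data known. Named genes are the 5 higher and 5 lower members of smallest p, the 5 with highest and lowest mean correlation, the 5 with the largest SD, a fixed set of stalk and stress proteins and like pairs, Rps19bp1, up to 3 of each other list by smallest p, and the 10 most like and 5 most opposed genes. Genes named outside it (Rps3a1, Rpl6, Rpl7a, Rpl38, Eef1a1, Eef2, Tpt1) were chosen after their values were seen. Alternatives covered filter, probe set choice, normalization, array groups, prior, weights, covariates and each animal left out.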

Additional observations from a re-analysis of the deposited data

Results flagged for a closer look

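In 4 members 1 PIO animal stood apart from the other 7 by more than Dixon's 95% criterion. Rpl13a was at 15.23 in PIO 14, with the others between 15.10 and 15.14, and Rps24 was at 14.77 in the same animal, with the others between 14.66 and 14.71. Rpl7l1 was at 9.787 in PIO 13, above 9.57 to 9.67 in the others. Rps19 was low in PIO 11 at 13.64, where the others were between 13.77 and 13.89. Chance gives about 1 such animal in 20 groups, and 98 groups were checked. PIO 14 and PIO 11 were also the highest and the lowest PIO animal for the mean of the members. That mean includes Rpl13a, Rps24 and Rps19, so the match is partly built in.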

How the results depend on the processing

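No paired analysis was possible because the diets share no subject number. The count of members called for diet was 0 under all 19 alternatives and with each of the 16 animals left out, and the median difference ran from -0.033 to 0.012 (with 1 animal left out, -0.020 to 0.0034). For 30 named members, 1030 values under alternatives held 0 past the threshold, with a smallest adjusted p of 0.452. The co-variation of ribosomal protein genes, as median r (0.28, jackknife SE 0.048), was 0.224 without a filter, 0.213 with every probe set and 0.185 with quantile normalization. It was 0.0800 without probe sets of suffix a, s or x, 0.416 for members above 12 and 0.344 without the like proteins, pseudogenes and binding protein. With 1 animal left out it ran from 0.248 to 0.291. With every probe set, 2 were called on the choroid plexus marker mean, a count of probe sets and not of genes. The count of ribosomal protein genes called on it was 1 with each animal left out. It was 0 without the suffixes a, s and x, in the largest code group, above 12 and without like proteins, where Rps27l itself is left out in 3 of these 4. The count of ribosomal protein genes called on the striatal marker mean was 1 with array weights. The settings on members above 12, on like proteins and on PIO 14 to 16 were chosen after seeing the data. Bright probe sets near the top of the scale, such as that of Rps29, limit what a difference there can show.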
